A study of Mus musculus with 12 samples.

Results

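Interferon-stimulated genes are the genes that cells switch on when interferons, the cytokines released on sensing viral nucleic acid, bind their receptors. The 34 described here were chosen by name, as known members of the response, out of 41388 genes in the count tables: 4 transcription factors of the response, 6 sensors of foreign nucleic acid, 3 genes of ISG15 and ubiquitin conjugation, 3 genes of ADP-ribosylation, 4 IFIT genes, 6 antiviral membrane proteins and GTPases, 2 antigen processing genes and 6 other effectors. The OAS family, Cmpk2 and Rsad2, which also respond to interferon, were not among them. The choice was made with earlier results of these data known, and Oas2 and Cmpk2, both left out, were called higher in KO astrocytes. Counts of genes called among the 34 therefore describe this list and not all interferon-stimulated genes. All 34 were found in the tables and passed the filter on low counts in each comparison. Their lowest raw count in any of the 12 libraries was 12, for Mx1.

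The libraries came from the brains of 8 mice aged 20 months, on a C57BL\6 background. All the mice carried loxP-flanked alleles of Bmal1, the clock transcription factor whose gene is listed as Arntl (strain label Bmal fl/fl; ALDH1L1-CreERT2), and all were gavaged with tamoxifen at 2 months, 2 mg a day for 5 days. The Aldh1l1 promoter, active in astrocytes, drives the tamoxifen-inducible Cre. Libraries labelled KO came from Cre+ mice and those labelled WT from Cre- mice, so that both carried the floxed alleles and the drug. After collagenase digestion and removal of debris, astrocytes were captured on beads against ACSA-2, an antigen carried by the membrane protein ATP1B2, and the cells left over were kept as flowthrough. KO astrocytes were from mice 60, 62, 73 and 132, WT astrocytes from mice 56, 57, 64 and 78, KO flowthrough from mice 60 and 132, and WT flowthrough from mice 56 and 64. Values per library below follow that order of mice.

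Type I interferons bind the receptor IFNAR1 and IFNAR2, whose kinases JAK1 and TYK2 phosphorylate STAT factors. STAT2 and IRF9 are subunits of the resulting complex ISGF3, which binds the interferon-stimulated response element (ISRE) in the promoters of its targets. In brain, microglia and astrocytes are both known to express such genes, at a low level without infection and more with age. BMAL1 pairs with CLOCK on a different motif, the E-box.

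The ISRE core, taken as 2 copies of GAAA with any 2 bases between them and read on either strand, was looked for between 250 bases before and 50 bases after the RefSeq start sites of the GRCm38.p6 assembly. Promoters were on hand for 26 of the 34 genes, and 13 of the 26 held the core, against 3.99% of 27025 genes. The E-box CACGTG was present for 1 of the 26, Trim25, against 8.09% of all genes. Stretches of 5 promoters are shown, all picked among those with more than 1 match: the pair Ifit3 and Ifit3b, with the lowest KO estimates, Gbp3, with the smallest p above WT in astrocytes, and Ifit1 and Isg15 as well-known targets. The promoters of Irf1, Irf7 and Ifit2, also described below, held no match. Gbp3 had another start site as well, whose window held no match. Each stretch has the ISRE core in capitals where it matched and lower case elsewhere. They lie at chr19:34640770-34640828 (plus strand) for Ifit1, chr19:34583358-34583431 (plus strand) for Ifit3, chr19:34607754-34607827 (plus strand) for Ifit3b, chr4:156200860-156200911 (minus strand) for Isg15 and chr3:142559984-142560029 (plus strand) for Gbp3, all before the start site.
Ifit1: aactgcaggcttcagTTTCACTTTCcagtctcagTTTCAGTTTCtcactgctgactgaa
Ifit3: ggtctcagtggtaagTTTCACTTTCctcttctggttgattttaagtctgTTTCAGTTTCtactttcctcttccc
Ifit3b: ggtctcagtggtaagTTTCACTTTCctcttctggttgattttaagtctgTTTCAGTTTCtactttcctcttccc
Isg15: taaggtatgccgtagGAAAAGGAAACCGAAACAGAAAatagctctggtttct
Gbp3: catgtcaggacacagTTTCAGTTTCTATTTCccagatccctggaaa
The printed stretches of Ifit3 and Ifit3b are identical over their 74 bases, with matches that begin 156 and 122 bases before the start of Ifit3 and 188 and 154 bases before that of Ifit3b. The matches of Isg15 overlap each other, 3 within 1 run, as do the 2 of Gbp3. A match is a string of letters in a window, not a site at which binding was measured.

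Total counts were between 38691406 and 51551942 per library, so that the floor of 3 counts corresponded to 0.0582 to 0.0775 CPM, a count scaled to a fixed library total. The label was checked on Arntl itself, which had 401, 428, 645 and 628 raw counts in KO astrocytes, against 360, 239, 242 and 374 in WT astrocytes, a log2 fold change of 0.66 ± 0.19 (SE; adjusted p = 0.473 by edgeR). The 95% interval was 0.22 to 1.09, with an unadjusted p of 0.00705 by edgeR. Every KO astrocyte value of Arntl lay above every WT value, a separation that 1.82% of all genes showed. KO flowthrough had 261 and 284 Arntl counts, against 292 and 217 in WT flowthrough. Arntl therefore did not fall in either fraction; which exons loxP flanks is not stated, and whether counts over the whole gene see the deletion was not tested. KO and WT stand throughout for the libraries so labelled. The 10 astrocyte markers, among them Aqp4 and Gja1, were all present in the astrocyte libraries and all higher there than in flowthrough by edgeR's quasi-likelihood test, while all 10 microglia markers were lower but still present. Their mean in astrocyte libraries reached from 5.24 to 7.47 log2 CPM. KO 73 and WT 78 were the astrocyte libraries with Xist (2411 and 1133 counts) and almost no Ddx3y (3 and 1 counts), and the other 10 libraries had the male pattern. Nothing states that mice of a group came from separate litters or were processed on separate days. The p-values of the astrocyte comparison therefore measure the spread between these mice. The main flowthrough, interaction and fraction tests took their spread from both fractions together, without a term for the mouse. Mice sampled in both fractions entered those tests with both libraries, treated as independent. The p-values of those tests therefore do not measure the spread between mice alone.

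Levels between genes were compared as RPKM, which is CPM divided by the gene's exon length in kilobases. Ifitm3, whose protein stops viruses from fusing with endosomes, was the most abundant of the 34 in WT astrocytes. It averaged 271.9 ± 106.9 RPKM in KO astrocytes and 283.0 ± 138.3 RPKM in WT astrocytes (SD, n = 4 each). Ifit3 followed, with 61.9 ± 30.5 RPKM in KO astrocytes and 90.9 ± 23.6 RPKM in WT astrocytes, and then Ifit3b, with 25.1 ± 9.74 RPKM in KO astrocytes and 46.3 ± 4.89 RPKM in WT astrocytes. Bst2, Lgals3bp, Isg15, Rtp4, Usp18, Ifit1 and Ifi35 came next, at means of 38.0 down to 10.5 RPKM in WT astrocytes. At the other end, Parp14 averaged 0.287 ± 0.169 RPKM in KO astrocytes and 0.297 ± 0.0383 RPKM in WT astrocytes, and 7 of the 34 genes lay below 1 RPKM in WT astrocytes. The interferon genes themselves were close to silent: of 20 looked for, 8 had no count in any library. Ifnb1 had 0 counts in all 8 astrocyte libraries, 0 and 20 counts in KO flowthrough, and 10 and 14 in WT flowthrough. Ifng had 0, 2, 24 and 12 counts in KO astrocytes, against 7, 2, 0 and 0 in WT astrocytes. In flowthrough Ifng had 52 and 83 counts in KO, against 119 and 34 in WT.

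None of the 34 interferon-stimulated genes differed between KO and WT astrocytes by the test. Across all 18527 genes tested with edgeR's quasi-likelihood test, 27 were higher in KO (0.146%) and 16 lower (0.0864%) at an adjusted p under 0.05, 0.232% in all; of the 34, 0 were called in either direction, and DESeq2 also called 0. At an unadjusted p under 0.05, 1 of the 34 passed, Ifit3b, against 5.37% of all genes. Estimates lay above WT for 24 and below for 10 of the 34, with a median log2 fold change of 0.06, against 0.00 for all genes. They reached from -0.88 for Ifit3b to 0.59 for Sp100. The 95% intervals reached a median of 0.75 to either side and lay within a 2-fold change in both directions for 20 genes. For the remaining genes the interval includes a change of 2-fold or more in at least 1 direction.

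**Figure D1:**
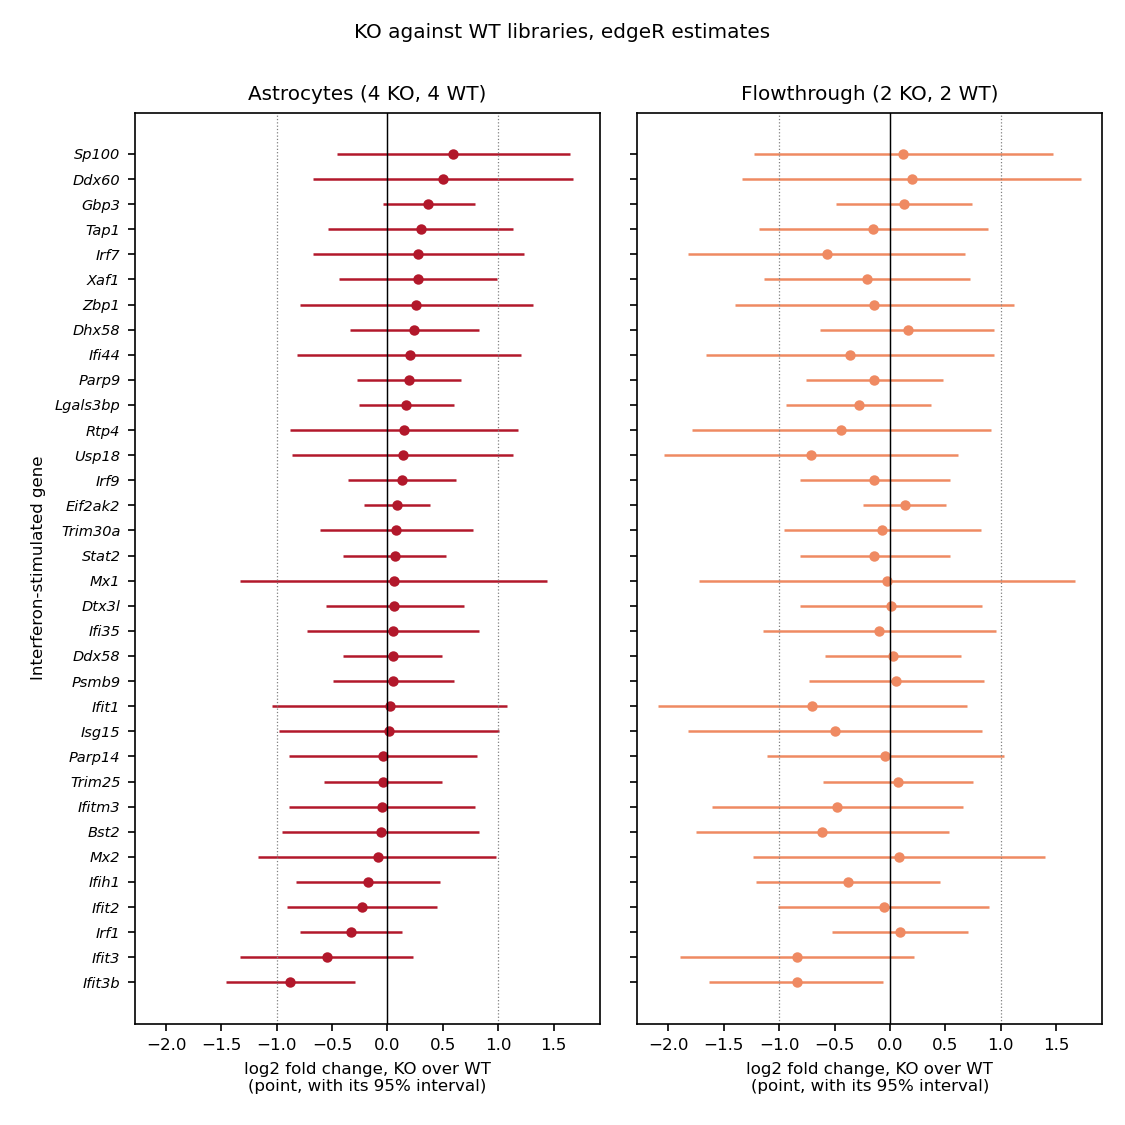
log2 fold change of each interferon-stimulated gene, KO over WT (x axis), as a point with its 95% interval, in astrocytes on the left (4 KO and 4 WT libraries) and flowthrough on the right (2 and 2). Genes run from the highest to the lowest estimate in astrocytes, and dotted lines mark a 2-fold change. Only the intervals of Ifit3b leave out 0 in either panel, and no gene passed after adjustment over all genes.

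Ifit3b and Ifit3 gave the lowest estimates of the 34, while Ifit1, of the same family, lay near 0. The IFIT genes encode proteins that bind foreign RNA and sit next to each other on chromosome 19 (GRCm38): Ifit2 at 34550694 to 34576419, Ifit3 at 34583531 to 34588731, Ifit3b at 34607970 to 34613401 and Ifit1 at 34640871 to 34650009. Ifit3b, a mouse copy of Ifit3, had 25.9, 48, 73.2 and 53.9 CPM in KO astrocytes, against 92.2, 86.9, 106.6 and 84.9 CPM in WT astrocytes. All 4 KO values lay below all 4 WT values, and mouse 60 was the lowest. Ifit3b was the only one of the 34 whose astrocyte groups did not overlap with KO lower, a separation that 2.26% of all genes showed, and 0 did with KO higher, against 1.82%. The log2 fold change was -0.88 ± 0.26 (SE; 95% interval -1.46 to -0.29), with an unadjusted p of 0.00767 and an adjusted p of 0.500 by edgeR, and of 0.137 by DESeq2.

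Ifit3 had 46.7, 94.4, 174.9 and 115.6 CPM in KO astrocytes, against 166.4, 146.2, 210.3 and 111.6 CPM in WT astrocytes. The KO values were spread more widely than the WT values, and mice 73 and 132 lay within the WT range. Its log2 fold change was -0.55 ± 0.35 (SE), with an adjusted p of 0.984 by edgeR. Of the 50-base windows of the longest Ifit3 transcript, 51.2% also occur in Ifit3b, and no source used here says how reads that match both were counted, so the division of reads between the pair is uncertain. Ifit3b held 35.7%, 33.7%, 29.5% and 31.8% of the pair's counts in KO astrocytes, against 35.7%, 37.3%, 33.6% and 43.2% in WT astrocytes. The sum of the pair, computed after the separate values had been seen, was 72.6, 142.5, 248.1 and 169.6 CPM in KO astrocytes, against 258.6, 233.1, 316.9 and 196.5 CPM in WT astrocytes. Summed, the groups overlapped through mouse 73, which lay above WT 57 and WT 78.

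Ifit2 had 7.79, 13.3, 25.8 and 15.3 CPM in KO astrocytes, against 19.8, 20.3, 17.3 and 15.9 CPM in WT astrocytes, with a log2 fold change of -0.23 ± 0.30 (SE) and an adjusted p of 0.995 by edgeR. Ifit1, whose protein binds the 5′ ends of foreign RNA, had 15.7, 33.1, 82.9 and 38.4 CPM in KO astrocytes, against 46.2, 29.4, 68 and 24.4 CPM in WT astrocytes, with a log2 fold change of 0.02 ± 0.47 (SE) and an adjusted p of 0.996 by edgeR. Mouse 73 was above every WT library for both genes, and mouse 60 below every WT library.

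Flowthrough levels of Ifit3b were 34.4 and 48.5 CPM in KO flowthrough, against 70.1 and 79.3 CPM in WT flowthrough. Those of Ifit3 were 75.8 and 125.8 CPM in KO flowthrough, against 161.8 and 200 CPM in WT flowthrough. Ifit1 showed 38.6 and 58.1 CPM in KO flowthrough, against 65.1 and 91.8 CPM in WT flowthrough. For these 3 genes both KO libraries lay below both WT libraries. With 2 libraries a group, 16.7% of all genes in flowthrough showed such a separation with KO lower. Ifit2 overlapped, at 16.6 and 29.2 CPM in KO flowthrough, against 27.2 and 20.4 CPM in WT flowthrough.

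Of the 4 transcription factors, 3 had estimates above WT and 1 below in astrocytes, and 1 above and 3 below in flowthrough, with 0 called. Stat2, a subunit of ISGF3, had 13.6, 20.1, 22 and 13.4 CPM in KO astrocytes, against 20, 15.3, 17.3 and 13.4 CPM in WT astrocytes. In flowthrough Stat2 had 23.6 and 30.1 CPM in KO flowthrough, against 22.6 and 36.5 CPM in WT flowthrough. KO and WT overlapped in both fractions. Irf9, the subunit of ISGF3 that recognises DNA, had 25, 42.6, 51.4 and 36 CPM in KO astrocytes, against 40.2, 33.9, 40.6 and 27.6 CPM in WT astrocytes. Its flowthrough values were 63.1 and 90.2 CPM in KO flowthrough, against 77.5 and 91.5 CPM in WT flowthrough. Mouse 60 was the lowest library of each KO group, and again the groups overlapped. Irf7, which drives transcription of the type I interferon genes and amplifies the response, had 9.95, 24.5, 40.4 and 19.7 CPM in KO astrocytes, against 23.5, 15.1, 29.2 and 10.2 CPM in WT astrocytes. For Irf7 in flowthrough, the values were 35.5 and 49.9 CPM in KO flowthrough, against 51.5 and 75.5 CPM in WT flowthrough. The 4 KO astrocyte values of Irf7 spanned a wider range than the 4 WT values and enclosed all of them. In flowthrough both KO values lay below both WT values, as they did for 16.7% of all genes. Irf1, a factor induced mainly by interferon gamma, had 15, 13, 23.1 and 16.7 CPM in KO astrocytes, against 21.3, 25.2, 22.9 and 16.2 CPM in WT astrocytes. Flowthrough libraries held Irf1 at 57.5 and 80 CPM in KO flowthrough, against 68 and 61.1 CPM in WT flowthrough. Its estimate in astrocytes, -0.33 ± 0.21 (SE) with an adjusted p of 0.984 by edgeR, was the third lowest of the 34. Mice 60 and 62 lay below every WT library, and mice 73 and 132 lay within the WT range.

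**Figure D2:**
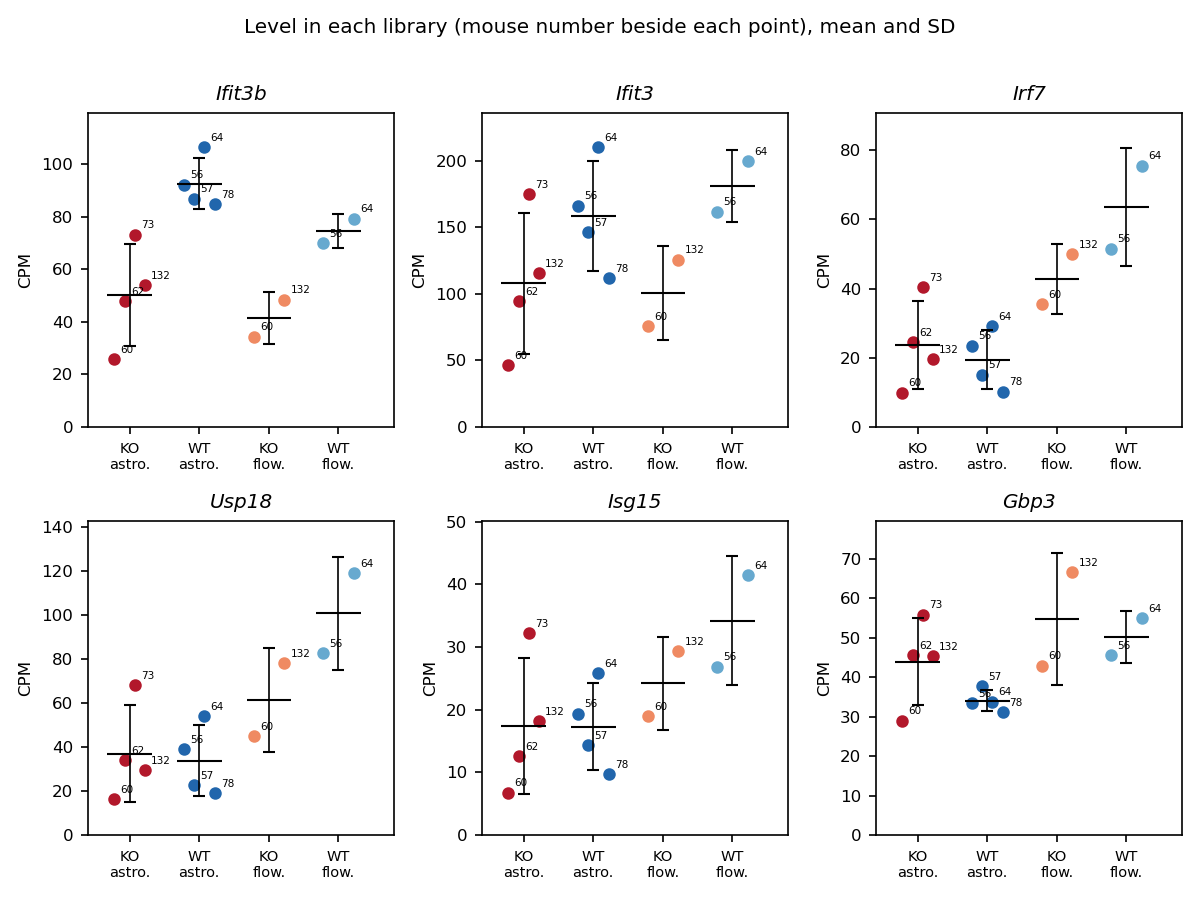
Level of 6 interferon-stimulated genes in CPM (y axes, from 0), 1 point per library with its mouse number, in KO and WT astrocytes and KO and WT flowthrough. Horizontal lines are group means and bars are SD. The KO points of Ifit3b lie below the WT points in both fractions, while the other genes overlap in astrocytes. In flowthrough the KO points of Ifit3, Irf7 and Usp18 also lie below the WT points, a separation that 16.7% of all genes showed. The flowthrough libraries came from mice that also gave astrocyte libraries.

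Of the 6 sensors, 5 had estimates above WT and 1 below in astrocytes, and 4 above and 2 below in flowthrough, with 0 called. Ifih1 encodes MDA5, a sensor of long double-stranded RNA, and had 5.85, 7.77, 14.6 and 10.5 CPM in KO astrocytes, against 13.3, 10, 12.9 and 7.84 CPM in WT astrocytes. Flowthrough held Ifih1 at 17.2 and 24 CPM in KO flowthrough, against 26 and 27.9 CPM in WT flowthrough. Astrocyte groups overlapped, and in flowthrough both KO values were the lower ones, as for 16.7% of all genes. Ddx58, which encodes RIG-I, a sensor of RNA with 5′ triphosphates, had 8.64, 13.3, 15.8 and 12.9 CPM in KO astrocytes, against 13.3, 10.4, 14 and 11.5 CPM in WT astrocytes. For Ddx58 the flowthrough values were 23.4 and 36.3 CPM in KO flowthrough, against 27.4 and 31.4 CPM in WT flowthrough. The groups overlapped in both fractions. Dhx58 encodes LGP2, which modulates both of these sensors, and had 3.43, 6.87, 6.35 and 6.23 CPM in KO astrocytes, against 6, 3.4, 4.81 and 5.13 CPM in WT astrocytes. Its flowthrough levels were 12.8 and 22.1 CPM in KO flowthrough, against 14.9 and 16.5 CPM in WT flowthrough. Mouse 60 was the lowest KO library in each fraction, and WT values fell within the KO range in flowthrough. Ddx60, a helicase linked to RIG-I signalling, had 2.58, 6.77, 17.1 and 9.7 CPM in KO astrocytes, against 7.55, 5.5, 9.65 and 2.92 CPM in WT astrocytes. Flowthrough Ddx60 stood at 13.2 and 27.5 CPM in KO flowthrough, against 18.7 and 16.9 CPM in WT flowthrough. In KO astrocytes mouse 73 had the highest and mouse 60 the lowest value of all 8 libraries, and the log2 fold change of 0.50 ± 0.53 (SE; adjusted p = 0.995 by edgeR) turned to -0.01 without KO 73. Zbp1, a sensor of Z-form nucleic acid that can start necroptosis, was scarce, at 0.876, 1.07, 2.96 and 2.22 CPM in KO astrocytes, against 2.07, 0.989, 2.05 and 0.848 CPM in WT astrocytes. It was more abundant in flowthrough, at 5.71 and 7.87 CPM in KO flowthrough, against 6.75 and 8.23 CPM in WT flowthrough. Its groups overlapped too. Eif2ak2 encodes PKR, the kinase that stops translation on binding double-stranded RNA, and had 18.8, 15.1, 17.5 and 18.6 CPM in KO astrocytes, against 15.3, 16.8, 15.4 and 18.6 CPM in WT astrocytes. Flowthrough values of Eif2ak2 were 23.9 and 28.1 CPM in KO flowthrough, against 23.6 and 23.9 CPM in WT flowthrough. KO and WT overlapped, and unlike most of the 34 the highest KO astrocyte value was that of mouse 60.

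Of the 3 genes of ISG15 and ubiquitin conjugation, 2 had estimates above WT and 1 below in astrocytes, and 1 above and 2 below in flowthrough, with 0 called. Isg15, a ubiquitin-like protein attached to other proteins during the response, had 6.77, 12.6, 32.2 and 18.2 CPM in KO astrocytes, against 19.4, 14.4, 25.8 and 9.7 CPM in WT astrocytes. Its levels in flowthrough were 19 and 29.4 CPM in KO flowthrough, against 26.9 and 41.5 CPM in WT flowthrough. The highest and the lowest of the 8 astrocyte values were both KO, from mice 73 and 60. Usp18, which removes ISG15 and damps signalling at the receptor, had 16.3, 33.9, 68 and 29.4 CPM in KO astrocytes, against 39.2, 22.8, 54.1 and 18.9 CPM in WT astrocytes. In flowthrough, Usp18 had 44.8 and 78 CPM in KO flowthrough, against 82.6 and 119 CPM in WT flowthrough. Both KO flowthrough values lay below both WT values, as for 16.7% of all genes, but the astrocyte groups overlapped. The log2 fold change in flowthrough was -0.71 ± 0.61 (SE, adjusted p = 1 by edgeR). Trim25, a ubiquitin ligase that acts on RIG-I, had 5.14, 4.36, 8.22 and 7.6 CPM in KO astrocytes, against 6.69, 6.72, 7.36 and 5.42 CPM in WT astrocytes. Flowthrough held 13.7 and 18.7 CPM in KO flowthrough, against 13.7 and 17.2 CPM in WT flowthrough for Trim25, with overlap in both fractions.

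Parp9 and its partner Dtx3l, a ubiquitin ligase, form a complex in the response, and Parp14 is a related ADP-ribosyltransferase. Parp9 had 8.81, 12.3, 16.8 and 11.9 CPM in KO astrocytes, against 11, 10.4, 13.3 and 9.26 CPM in WT astrocytes. In flowthrough Parp9 reached 23.9 and 34 CPM in KO flowthrough, against 30.1 and 33.8 CPM in WT flowthrough. KO and WT overlapped in each fraction. Dtx3l had 7.79, 6.99, 15.8 and 9.78 CPM in KO astrocytes, against 12.6, 8.41, 10.3 and 7.54 CPM in WT astrocytes. Its flowthrough counterpart was 22.6 and 35.5 CPM in KO flowthrough, against 28.4 and 29.2 CPM in WT flowthrough. The exons of Parp9 and Dtx3l overlap over 9.4% of the exon bases of Parp9, on opposite strands, so reads there cannot be assigned without strand. Parp14 had 1.25, 2.49, 4.91 and 2.03 CPM in KO astrocytes, against 3.09, 2.79, 2.9 and 2.26 CPM in WT astrocytes. Flowthrough levels of Parp14 were 8.73 and 14.1 CPM in KO flowthrough, against 10.1 and 13.4 CPM in WT flowthrough. Estimates lay above WT for 2 and below for 1 of the 3 genes in astrocytes, and above for 1 and below for 2 in flowthrough, with 0 called.

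Of the 6 antiviral membrane proteins and GTPases, 3 had estimates above WT and 3 below in astrocytes, and 2 above and 4 below in flowthrough, with 0 called. Gbp3, a guanylate-binding protein, had the smallest p of the 34 in the direction of higher in KO. It had 29, 45.6, 55.8 and 45.3 CPM in KO astrocytes, against 33.4, 37.7, 33.8 and 31.2 CPM in WT astrocytes. Mice 62, 73 and 132 lay above every WT library and mouse 60 below every one, with a log2 fold change of 0.37 ± 0.18 (SE; adjusted p = 0.967 by edgeR). Flowthrough Gbp3 levels were 42.9 and 66.6 CPM in KO flowthrough, against 45.6 and 54.9 CPM in WT flowthrough, and its groups overlapped there. Bst2 encodes tetherin, which holds budding virions on the cell surface, and had 13.4, 17.8, 53 and 26.8 CPM in KO astrocytes, against 32.1, 25.4, 39.1 and 19.6 CPM in WT astrocytes. Bst2 in flowthrough stood at 62 and 74.8 CPM in KO flowthrough, against 95.1 and 114.1 CPM in WT flowthrough. Both KO flowthrough values lay below both WT values, as for 16.7% of all genes. The log2 fold change there was -0.61 ± 0.52 (SE, adjusted p = 1 by edgeR). Ifitm3 had 100.3, 166.7, 275.2 and 195.1 CPM in KO astrocytes, against 199.4, 152, 318.1 and 98 CPM in WT astrocytes. Ifitm3 flowthrough levels were 255.4 and 388.1 CPM in KO flowthrough, against 365.2 and 531.6 CPM in WT flowthrough. Its highest and its lowest astrocyte library were both WT, mice 64 and 78, and the KO libraries lay between them. Mx1 and Mx2, dynamin-like GTPases, were scarce. Mx1 had 0.284, 0.71, 2.73 and 0.932 CPM in KO astrocytes, against 0.92, 1.89, 0.981 and 0.754 CPM in WT astrocytes. Mx1 flowthrough values were 3.12 and 6.26 CPM in KO flowthrough, against 5.2 and 4.38 CPM in WT flowthrough. Values of Mx1 overlapped in both fractions. Mx2 had 1.35, 1.18, 3.2 and 2.03 CPM in KO astrocytes, against 1.88, 0.902, 3.99 and 1.55 CPM in WT astrocytes. Mx2 flowthrough values were 3.92 and 4.75 CPM in KO flowthrough, against 4.33 and 3.9 CPM in WT flowthrough. Mx2, too, overlapped in both. Rtp4, a receptor transporter protein, had 12.5, 30.4, 64.8 and 29.4 CPM in KO astrocytes, against 37, 23.5, 46.3 and 17.2 CPM in WT astrocytes. Rtp4 in flowthrough was at 45.5 and 73.7 CPM in KO flowthrough, against 71.5 and 90.8 CPM in WT flowthrough. The astrocyte values of Rtp4 ran from mouse 60 to mouse 73, both KO, and enclosed all WT values.

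Both antigen processing genes had estimates above WT in astrocytes, and 0 were called. Psmb9, a catalytic subunit of the immunoproteasome, had 8.29, 10.8, 17.2 and 14 CPM in KO astrocytes, against 12.7, 13.9, 13.4 and 8.74 CPM in WT astrocytes. Its levels in flowthrough stood at 34.4 and 66.1 CPM in KO flowthrough, against 48.8 and 47.6 CPM in WT flowthrough. Tap1, which carries peptides into the endoplasmic reticulum for MHC class I, had 3.05, 5.75, 11.1 and 6.16 CPM in KO astrocytes, against 6.96, 4.98, 6 and 3.39 CPM in WT astrocytes. Tap1 flowthrough levels were 16.1 and 21.3 CPM in KO flowthrough, against 19.1 and 22.4 CPM in WT flowthrough. Both genes overlapped between KO and WT in both fractions, with mouse 60 lowest and mouse 73 highest among KO astrocytes. The pair lies head to head on chromosome 17, and 5.79% of the exon bases of Psmb9 overlap those of Tap1.

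All 6 other effectors had estimates above WT in astrocytes, 5 of them below WT in flowthrough, and 0 were called. Sp100, a component of nuclear bodies, showed 8.83, 12.5, 42.7 and 18.9 CPM in KO astrocytes, against 15.1, 10.8, 20.7 and 8.46 CPM in WT astrocytes. In flowthrough Sp100 had 74.2 and 99.5 CPM in KO flowthrough, against 63.9 and 96.4 CPM in WT flowthrough. Mouse 73 stood far above the other KO libraries, and the log2 fold change of 0.59 ± 0.47 (SE; adjusted p = 0.995 by edgeR) turned to -0.04 without KO 73. Lgals3bp, a secreted protein that binds galectin 3, had 80.3, 113.1, 131.8 and 111.8 CPM in KO astrocytes, against 126.9, 94.2, 95 and 73.9 CPM in WT astrocytes. Lgals3bp flowthrough levels were 197.6 and 323.3 CPM in KO flowthrough, against 286.2 and 349.1 CPM in WT flowthrough. Groups overlapped in both fractions. Trim30a had 5.54, 7.29, 14 and 6.06 CPM in KO astrocytes, against 8.4, 6.14, 9.92 and 6.83 CPM in WT astrocytes. Trim30a flowthrough levels stood at 27.3 and 42.5 CPM in KO flowthrough, against 32.7 and 40.7 CPM in WT flowthrough. Overlap held for it in both fractions. Ifi35 had 10.8, 16.5, 30.5 and 17.4 CPM in KO astrocytes, against 21.7, 10.9, 26.2 and 14.1 CPM in WT astrocytes. Ifi35 flowthrough levels stood at 38.3 and 60.7 CPM in KO flowthrough, against 42.8 and 63.5 CPM in WT flowthrough. The KO range of Ifi35 enclosed the WT range in astrocytes, and 16.8% of its exon bases are shared with Gm11626. Ifi44 ranged from 2.60 to 11.9 CPM in KO astrocytes and from 2.85 to 8.56 CPM in WT astrocytes, and Xaf1 from 13.2 to 44 CPM in KO astrocytes and from 18.2 to 25.7 CPM in WT astrocytes.

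In flowthrough, none of the 34 genes differed between KO and WT by the test either. Of 20997 genes tested with edgeR's quasi-likelihood test on all 12 libraries, 1 was higher in KO (0.00476%) and 0 lower (0%), and 0 of the 34 were called; DESeq2 called 0 of them too. Estimates lay above WT for 11 and below for 23 of the 34, with a median log2 fold change of -0.14, against 0.04 for all genes. Both KO libraries lay below both WT libraries for 8 genes, Irf7, Ifih1, Usp18, Ifit1, Ifit3, Ifit3b, Bst2 and Ifi44. With 2 libraries a group such a separation was common: 16.7% of all genes showed it in that direction and 16.9% in the other, in which none of the 34 did. The lowest estimates were those of Ifit3b, -0.84 ± 0.36 (SE; 95% interval -1.63 to -0.06; adjusted p = 1 by edgeR), and Ifit3, -0.84 ± 0.48 (SE; adjusted p = 1). At an unadjusted p under 0.05, 1 of the 34 passed, Ifit3b, against 4.63% of all genes. The 4 smallest p above WT belonged to Eif2ak2 (0.14 ± 0.17), Gbp3 (0.13 ± 0.28), Dhx58 (0.16 ± 0.36) and Irf1 (0.09 ± 0.28), all log2 fold changes with SE and adjusted p = 1 by edgeR. These estimates moved with single mice: without KO flowthrough 132, 1 estimate lay above WT and 33 below, with a median of -0.45, and without KO flowthrough 60, 23 lay above and 11 below, with a median of 0.10.

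Whether the KO difference itself changed between the fractions was tested as an interaction. Of the 34, 0 passed, as did 0 of all 20997 genes (0%); 0 of the 34 and 3.94% of all genes had an unadjusted p under 0.05, and DESeq2 called 0 of the 34 and 8 of all genes. The difference between the astrocyte and flowthrough log2 fold changes had a median of 0.25 over the 34 genes and of -0.03 over all genes. Its 95% intervals reached between 0.46 and 2.11 to either side, with a median of 1.22. With the mouse as a block, which uses the mice with both fractions, the median was -0.37 and 0 were called.

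The 34 genes varied together from mouse to mouse. In KO astrocytes mouse 73 had the highest value for 32 of the 34 and mouse 60 the lowest for 28, against 36.7% and 29.2% of all tested genes. In WT astrocytes mouse 64 had the highest value for 19 and mouse 78 the lowest for 27, against 24.4% and 27.3% of all genes. Mouse 73 lay above every WT astrocyte library for 28 genes (30.2% of all genes) and mouse 60 below every one for 25 (18.7%). The mean of the 34 was 3.07, 3.70, 4.60 and 3.91 log2 CPM in KO astrocytes, against 4.04, 3.71, 4.20 and 3.42 log2 CPM in WT astrocytes. The SD over mice of a gene's log2 CPM had a median of 0.63 for the 34 in KO astrocytes and 0.35 in WT astrocytes, against 0.34 and 0.30 for all genes. Mice sampled in both fractions can be set side by side: mouse 60 lay below mouse 132 in both astrocytes and flowthrough for 32 of the 34, against 33.4% of all genes, and WT mouse 56 below WT mouse 64 in both for 19, against 26.0%. These counts describe which library is highest or lowest, and no test was made of them.

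**Figure D3:**
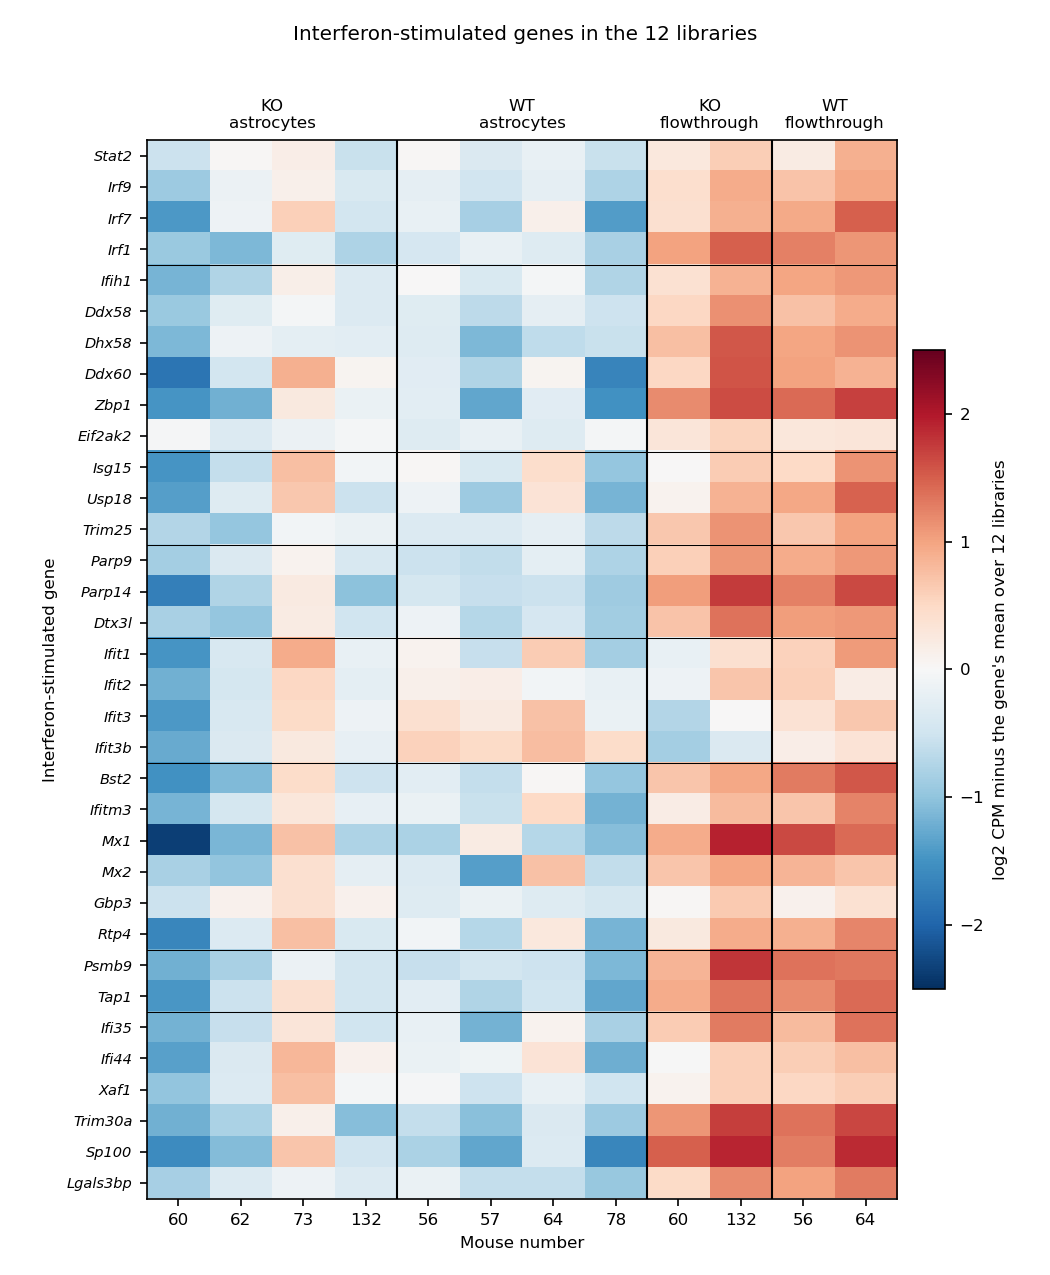
Each of the 34 genes (rows, in the order of their roles) in each library (columns, by mouse number), coloured by log2 CPM minus the gene's mean over the 12 libraries. Among KO astrocytes the column of mouse 73 is the reddest and that of mouse 60 the bluest, and the flowthrough columns are mostly redder than the astrocyte columns, least so in the rows of Ifit3 and Ifit3b.

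Markers of another cell type moved with the same libraries. All 10 microglia markers and all 10 oligodendrocyte markers had estimates above WT in KO astrocytes, with medians of 0.63 and 0.78 on the log2 scale, although 0 of either were called. The mean of the 10 microglia markers was 5.32, 5.88, 7.47 and 6.07 log2 CPM in KO astrocytes, against 6.21, 5.53, 6.02 and 5.24 log2 CPM in WT astrocytes. Mouse 73 was highest and mouse 60 lowest among KO, and mouse 78 lowest among WT, as for the mean of the interferon-stimulated genes. The highest WT library was mouse 56 for the microglia markers but mouse 64 for the interferon-stimulated genes. Endothelial markers were also highest among WT in mouse 64, with sums of 404.8 to 748.4 CPM in KO astrocytes and 295.7 to 929.7 CPM in WT astrocytes. Border macrophage markers summed to 38.2 to 279.3 CPM in KO astrocytes and 28.5 to 95.7 CPM in WT astrocytes. The summed level of the 10 microglia markers was 504.4 to 2474.0 CPM in KO astrocytes and 481.2 to 989.3 CPM in WT astrocytes, with none of the 10 at 0 in any library. Markers of monocytes and neutrophils summed to 7.63 to 124.8 CPM in KO astrocytes and 7.42 to 90.8 CPM in WT astrocytes, and mouse 73 was again the highest. Lymphocyte markers summed to 9.87 to 29.7 CPM in KO astrocytes and 9.54 to 14.9 CPM in WT astrocytes, with 3 of 10 at 0 in WT 57 and in WT 78. The mean of the 10 astrocyte markers was lowest in mouse 73, at 9 log2 CPM, although not each marker was: Sox9 was highest there among KO, and Aqp4 was lower in KO 132. KO 73 and WT 78, the libraries with Xist, lay at opposite ends of the microglia marker level, at 7.47 and 5.24 log2 CPM. In KO flowthrough the microglia marker mean was 9.45 log2 CPM in mouse 60 and 10.08 in mouse 132, against 9.61 to 9.67 in WT flowthrough. The astrocyte marker mean went the other way in KO flowthrough, at 8.30 log2 CPM in mouse 60 and 7.49 in mouse 132. What part such markers have in the differences between flowthrough libraries was not tested.

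**Figure D4:**
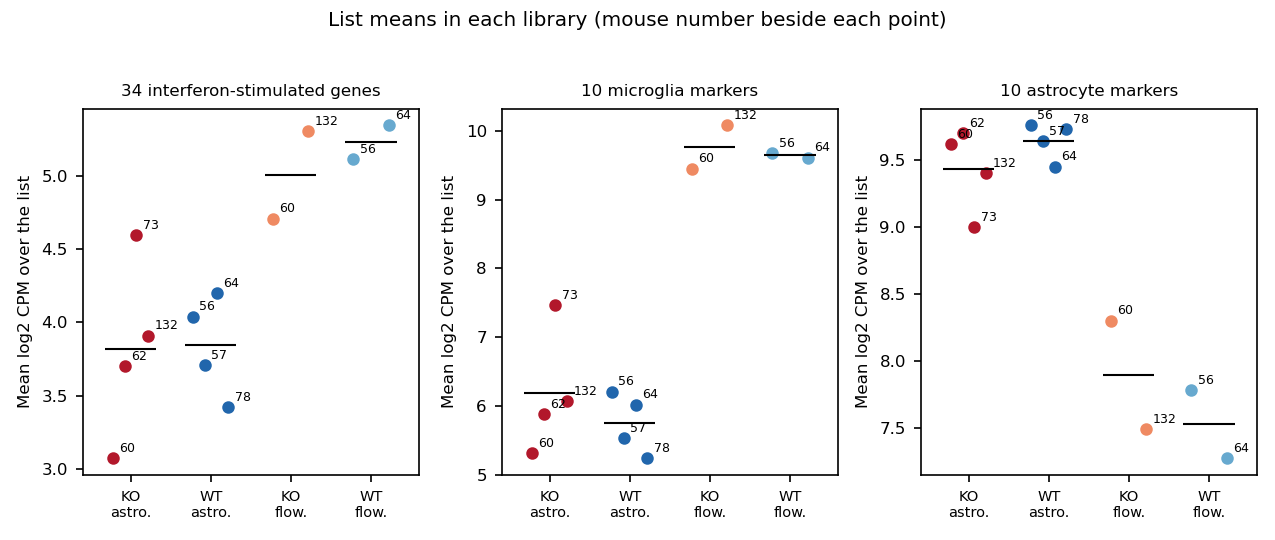
Mean log2 CPM in each library (y axes, which do not start at 0) of the 34 interferon-stimulated genes, the 10 microglia markers and the 10 astrocyte markers, with mouse numbers and group means as lines. Mouse 73 is the highest and mouse 60 the lowest KO astrocyte library in the panels of interferon-stimulated genes and microglia markers, and mouse 73 is the lowest astrocyte library in the panel of astrocyte markers.

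Libraries were then left out, or the marker level put into the fit. Without KO 73, 5 of the 34 had estimates above WT and 29 below, with a median log2 fold change of -0.24. Without both KO 73 and WT 78, 3 lay above and 31 below, with a median of -0.36, and 0 were called in either refit. With the mean of the microglia markers as a covariate, 4 lay above and 30 below, with a median of -0.25, and 2 of the 34 passed, both lower in KO, against 0.351% of all genes in that direction. These were Ifit3b, at -1.18 ± 0.16 (SE; adjusted p = 0.0102 by edgeR), and Ifit3, at -0.98 ± 0.18 (SE; adjusted p = 0.0354 by edgeR). As the division of reads between Ifit3 and Ifit3b is uncertain, these 2 calls need not be separate. That fit called 151 genes in all, 0.815% of those tested. Over all 15 alternatives Ifit3b kept an estimate below WT, from -1.18 to -0.66, with adjusted p from 0.0102 to 0.947, and Ifit3 from -1.02 to -0.30, with adjusted p from 0.0354 to 1. The covariate varies with KO 73 above all, and the part that microglial RNA has in the estimates was not tested in any other way.

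Between the fractions, 27 of the 34 genes were lower in astrocytes than in flowthrough by edgeR's quasi-likelihood test and 0 were higher, against 24.4% of all genes lower and 24.8% higher, 49.2% in all. The median log2 fold change of the 34, astrocytes over flowthrough, was -1.26, against 0.00 for all genes. For 20 of the 34, all 8 astrocyte libraries lay below all 4 flowthrough libraries, against 17% of all genes, and for none above. In the 4 mice with both fractions, 31 of the 34 were lower in the astrocytes of each mouse, against 32.7% of all genes; the other 3 were Ifit3, Ifit3b and Mx2. In such bulk samples, fewer cells of a type and less RNA per cell cannot be told apart, and astrocyte markers were present in the flowthrough, at means of 7.27 to 8.30 log2 CPM. All 10 microglia markers fell too, with a median of -3.68, as did all 10 endothelial markers, with a median of -1.22, while the 10 astrocyte markers and 9 of 10 neuron markers were higher, and both astrocyte libraries with Xist lack a flowthrough partner.

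The smallest p among the 34 belonged to Irf1, at -1.81 ± 0.17 (SE; adjusted p = 1.9e-05 by edgeR). It averaged 16.9 ± 4.36 CPM in KO astrocytes and 21.4 ± 3.79 CPM in WT astrocytes (SD, n = 4 each), against 68.8 ± 15.9 CPM in KO flowthrough and 64.6 ± 4.84 CPM in WT flowthrough (n = 2 each). Psmb9 fell by 1.99 ± 0.21 on the log2 scale (SE; adjusted p = 4.1e-05 by edgeR). Trim30a fell by 2.16 ± 0.24 (SE; adjusted p = 5.2e-05 by edgeR) and Lgals3bp by 1.48 ± 0.18 (SE; adjusted p = 7.7e-05 by edgeR). All 8 astrocyte libraries lay below all 4 flowthrough libraries for each of these 4 genes. By role, all 4 transcription factors, all 6 sensors, all 3 ADP-ribosylation genes, all 6 antiviral membrane proteins and GTPases and both antigen processing genes were lower in astrocytes, with medians of -1.20, -1.28, -1.54, -1.08 and -1.86. So were 2 of the 3 genes of ISG15 and ubiquitin conjugation and 4 of the 6 other effectors. Of the 27 genes, 21 passed in all 18 alternatives; the other 6 were Gbp3, Mx2, Rtp4, Ddx60, Ifitm3 and Usp18. Gbp3, at an adjusted p of 0.0479 by edgeR, lost its call in 10 of the 12 refits without 1 library, and the rest lost theirs in 2 or 3.

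Of the 4 IFIT genes 0 passed, with a median of -0.26. Ifit3b averaged 50.3 ± 19.5 CPM in KO astrocytes and 92.7 ± 9.79 CPM in WT astrocytes (SD, n = 4 each), against 41.5 ± 9.96 CPM in KO flowthrough and 74.7 ± 6.47 CPM in WT flowthrough (n = 2 each). Its log2 fold change was 0.29 ± 0.22 (SE, 95% interval -0.19 to 0.78, adjusted p = 0.290 by edgeR), the only estimate of the 34 above 0. Over the 18 alternatives the estimate of Ifit3b ranged from 0.14 to 0.43, and 1 of them called it higher in astrocytes. Ifit3 gave -0.05 ± 0.29 (SE; 95% interval -0.69 to 0.60; adjusted p = 0.911 by edgeR). Ifit2, at -0.47 ± 0.26, Ifit1, at -0.54 ± 0.38, Ifi44, at -0.59 ± 0.36, Xaf1, at -0.62 ± 0.25, and Isg15, at -0.72 ± 0.36 (SE), also missed the threshold, with adjusted p from 0.0618 to 0.259 by edgeR. With the mouse as a block these 5 passed, so that 32 of the 34 were lower in astrocytes, against 26.8% of all genes, and Ifit3 and Ifit3b alone were not called. The same 32 were called without KO 73, and the refits without 1 library called 7463 to 11458 genes in all.

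**Figure D5:**
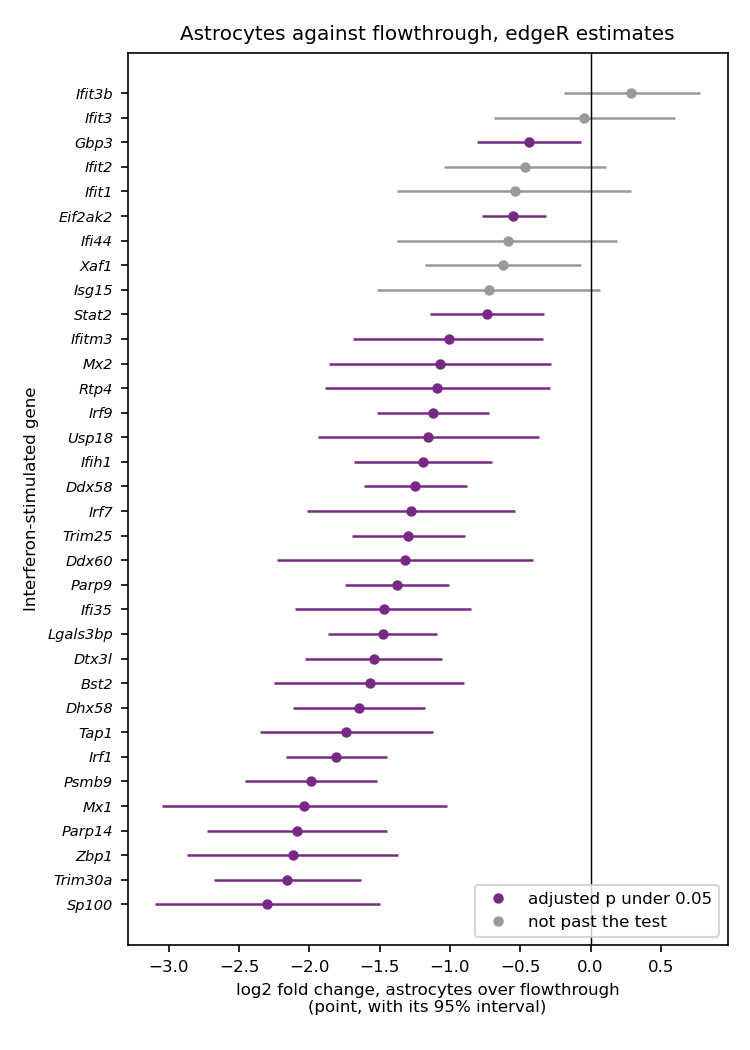
log2 fold change of each of the 34 genes, astrocytes over flowthrough (x axis), as a point with its 95% interval, from 8 astrocyte and 4 flowthrough libraries. Purple genes passed at an adjusted p under 0.05 and grey genes did not. Purple points reach from -2.30 for Sp100 to -0.44 for Gbp3, and the grey genes at the top are led by Ifit3b and Ifit3.

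The rest of the pathway was read from a list of 53 genes: ligands, receptors, kinases and STAT factors, sensors with their adaptors, and inhibitors. In astrocytes 30 of them were tested, and 0 were called between KO and WT in either direction, with a smallest adjusted p of 0.772 by edgeR. The receptor subunit Ifnar1 had 18.3, 20.8, 34.8 and 20.2 CPM in KO astrocytes, against 23, 20.5, 24.3 and 16 CPM in WT astrocytes. Ifnar2, its partner, had 7.13, 3.1, 17.8 and 7.96 CPM in KO astrocytes, against 10.3, 6.69, 12.4 and 8.31 CPM in WT astrocytes. The kinase Jak1 had 89.5, 78.7, 85.3 and 90.7 CPM in KO astrocytes, against 89.5, 97.3, 89.7 and 90.2 CPM in WT astrocytes. Receptors and Jak1 overlapped between KO and WT. Tyk2, the kinase held by IFNAR1, had 5.14, 9.52, 10.8 and 7.92 CPM in KO astrocytes, against 8.49, 6.2, 9.25 and 6.38 CPM in WT astrocytes. Its groups overlapped as well. The 3 smallest p belonged to Ticam1, the adaptor TRIF of Toll-like receptors, at -0.53 ± 0.20 (SE; adjusted p = 0.772 by edgeR), to Tlr3, a receptor for double-stranded RNA, at -0.37 ± 0.15 (SE; adjusted p = 0.857 by edgeR), and to Tlr7, a receptor for single-stranded RNA, at 1.05 ± 0.55 (SE; adjusted p = 0.972 by edgeR). Ticam1 had 6.44, 10, 7.57 and 7.16 CPM in KO astrocytes, against 12.5, 9.11, 9.81 and 13.7 CPM in WT astrocytes. Tlr3 had 23.1, 22.9, 27.4 and 25.5 CPM in KO astrocytes, against 39.5, 26.1, 28.6 and 34.5 CPM in WT astrocytes. Tlr7 had 2.3, 2.84, 11.4 and 3.03 CPM in KO astrocytes, against 2.53, 1.28, 3.79 and 1.88 CPM in WT astrocytes. Each of the 3 overlapped, and without KO 73 the estimate of Tlr7 was 0.19. In flowthrough 33 of the 53 were tested and 0 called between KO and WT, and between the fractions 29 of these 33 were lower in astrocytes and 0 higher, against 24.4% and 24.8% of all genes.

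Of 10 genes left out of the 34, those of the OAS family with Cmpk2 and Rsad2, 2 were higher in KO astrocytes and 0 lower by edgeR's quasi-likelihood test, against 0.146% and 0.0864% of all genes. Oas2, which makes the activator of RNase L, had 15.9, 14.5, 13.4 and 14.5 CPM in KO astrocytes, against 2.13, 1.78, 3.05 and 2.05 CPM in WT astrocytes, a log2 fold change of 2.70 ± 0.20 (SE; adjusted p = 9.4e-04 by edgeR), and Cmpk2, a mitochondrial nucleotide kinase, had 66.1, 48.9, 33.4 and 44.4 CPM in KO astrocytes, against 16.2, 16.2, 12.8 and 17.4 CPM in WT astrocytes, at 1.63 ± 0.21 (SE; adjusted p = 0.0153 by edgeR). All 4 KO values lay above all 4 WT values for both genes, with mouse 60 highest and mouse 73 lowest among KO. Cmpk2 lost its call in 6 of the 8 refits without 1 library, with adjusted p up to 0.0834 by edgeR, and Oas2 kept it in all 15 alternatives.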

How the data were processed

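RNA of 12 libraries was amplified with SMARTer v1 chemistry, per the labels' protocols. The deposited tables hold raw read counts per Ensembl gene, and beside them the authors' CPM and RPKM, per the file headers; the deposited CPM are the counts scaled by library total, and the deposited RPKM are also divided by exon length. Reads were handled with bcl2fastq, STAR 2.5.1a and featureCounts 1.4.6-p5 of Subread on GRCm38, per the submitters' processing notes. No source used here states the strand and multimapping settings. Of 41388 gene identifiers, 40254 matched a symbol, as did all 170 genes of the lists.

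Counts were tested with edgeR 4.0.16 (R 4.3.3, limma 3.58.1): filterByExpr, TMM scaling, the two-sided quasi-likelihood test and Benjamini-Hochberg adjustment over all genes tested, called at 0.05. The astrocyte comparison used the 8 astrocyte libraries; the flowthrough, interaction and fraction comparisons used all 12 with 4 group means. CPM per library in the text are TMM-scaled over the 12 libraries. The alternatives were DESeq2 1.42.0, other scalings, no filter, each library left out, both libraries with Xist left out, a microglia marker covariate, and the mouse as a block. Mouse numbers pair 4 astrocyte with 4 flowthrough libraries from the same animals; over 20997 genes, deviations from the group means of the paired libraries correlated at 0.352 (mouse 60), -0.00677 (mouse 132), 0.155 (mouse 56) and 0.251 (mouse 64). Scripts were tested on simulated data. Promoter sequences were RefSeq's for GRCm38.p6.

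The 34 genes and all lists were chosen with earlier results of these data known. Values per library are given for genes called in any comparison, the 4 smallest p in each direction of both KO comparisons, Stat2, Irf9, Irf7, Isg15, Ifit1, and the 3 highest in WT astrocytes; of the pathway, for Ifnar1, Ifnar2, Jak1, Tyk2 and the 3 smallest p; 1 other pathway gene is not reported here. The floor of 3 counts covers counting error only.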

Additional observations from a re-analysis of the deposited data

How the results depend on the processing

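Of the 34 interferon-stimulated genes, 0 were called between KO and WT astrocytes under 14 of 15 alternatives and 2, Ifit3 and Ifit3b, with the microglia marker covariate; between KO and WT flowthrough and in the interaction 0 were called under all 18. The number of all genes called in astrocytes, 43, was 28 with library size alone, 184 with DESeq2, 151 with the covariate and 12 to 37 when 1 library was left out. In flowthrough, 1 gene was called, against 22 with DESeq2, 0 with the 4 flowthrough libraries alone and 0 to 5 when 1 library was left out, and in the interaction 0, against 8 with DESeq2. In astrocytes 24 of the 34 estimates lay above WT, against 5 without KO 73, 14 without WT 78, 3 without both and 4 with the covariate. Of the astrocyte estimates followed singly, those of Sp100 and Ddx60 changed sign, at -0.21 and -0.25 without both KO 73 and WT 78, at -0.07 and -0.16 with the covariate, and at -0.04 to 0.86 and -0.01 to 0.81 when 1 library was left out. In flowthrough, leaving out 1 library gave -0.22 to 0.41 for Gbp3, -0.29 to 0.50 for Dhx58, -0.16 to 0.31 for Irf1 and -0.06 to 0.23 for Arntl, and between the fractions -0.22 to 0.16 for Ifit3. The causes were not tested.

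Between the fractions 21 to 32 of the 34 were called when 1 library was left out, and 7463 to 11458 genes in all. With the mouse as a block, 32 were called in place of 27, with 10816 genes in all in place of 10333, and the interaction again called 0. Groups of 2 flowthrough libraries limit what that comparison can detect.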
